A study of Homo sapiens with 3 samples.

Results

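The expression of 10 genes of the intermediate filament family was followed across parental HepG2 cells, the derived line HepG2/metR, and the same line after oxamate. The genes were taken by symbol from the 25270 gene symbols of the deposited files, and all 10 were found once. They are VIM, which encodes vimentin, NES, which encodes nestin, the type II keratin genes KRT7, KRT8 and KRT80, the type I keratin genes KRT18 and KRT19, and the lamin genes LMNA, LMNB1 and LMNB2. HepG2 cells are an epithelial line from a human liver tumour, which the study describes as hepatocellular carcinoma. The library named HepG2/wild came from untreated parental cells, and HepG2/metR is, by the labels, a line selected from HepG2 by chronic exposure to metformin, an inhibitor of respiratory complex I, for over 5 months. The library named HepG2/metR+oxamate came from HepG2/metR after 24 h with 40 mM oxamate, which inhibits lactate dehydrogenase. Whether HepG2/metR is 1 clone, and whether metformin was in the medium at harvest, is not given in the sources used here. The study compared these cells to find genes that follow lactate production and cell motility.

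Intermediate filaments are rope-like polymers built from proteins with a shared coiled-coil rod. Keratins form the filaments of epithelial cells as obligate pairs of a type I and a type II chain, and KRT8 with KRT18 is the pair of hepatocytes, whereas KRT7 and KRT19 are usual in bile duct cells. Vimentin is the filament protein of mesenchymal cells and of many motile cells, and nestin is a type IV protein of progenitor cells that assembles together with vimentin. Lamins line the inside of the nuclear envelope, where A-type lamins, the products of LMNA, are abundant in stiff or spread cells, and B-type lamins, the products of LMNB1 and LMNB2, stay bound to the membrane through a lipid tail.

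There was 1 library per condition (n = 1), so no difference below has a replicate check, no p-value was computed, and differences between cultures, library preparations and treatments cannot be told apart. Levels are given in FPKM, fragments divided by transcript length and by the library's mapped fragments, so that genes can be set side by side within a library. Differences between libraries are given on the log2(FPKM + 1) scale of the deposited values, which understates the difference of genes with low values, and ratios of FPKM are named as such. A gene was counted as higher or lower when it differed at least 2-fold on this scale between HepG2/metR and HepG2/wild, or at least 1.5-fold with oxamate, which are the thresholds of the study's methods. Over the 12210 genes with a mean of at least 1 FPKM in the 3 libraries the median log2 difference was 0.015 between HepG2/metR and HepG2/wild and 0.021 with oxamate. The number of reads is unknown, and the smallest values gave a depth relative to HepG2/wild of 1.21 for HepG2/metR and 1.23 for HepG2/metR+oxamate.

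The label of liver cells was checked with 10 hepatocyte marker genes. Their summed level was 33140 FPKM in HepG2/wild, 14.2 in HepG2/metR and 11.3 in HepG2/metR+oxamate, and 8 of the 10 genes were under 1 FPKM in both HepG2/metR libraries. ALB, the albumin gene, was listed at 9206, 0.747 and 0.617 FPKM, and HNF4A, a transcription factor that defines hepatocytes, at 68.7, 0.016 and 0.015 FPKM. Defining markers of liver cells were thus near 0 in the cells in which the filament genes below differed most from parental cells, and their part in those differences was not tested. That HepG2/metR descends from the parental culture is taken from the labels and was not tested, which bears on every difference between HepG2/metR and HepG2/wild below. The 9 markers of endothelial and blood cells summed to 2.64, 0.927 and 0.858 FPKM, of which CD14, named after its values were seen, had 2.19 FPKM in HepG2/wild. In bulk RNA, fewer cells of a type and less RNA per cell cannot be told apart.

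Of the 10 genes, VIM, KRT7 and KRT80 (3 of 10) were higher in HepG2/metR, by at least 2-fold. Over all genes, 16.6% were higher at this threshold. NES and KRT19 were at least 2-fold lower, against 17.6% of all genes. KRT8, KRT18 and the 3 lamin genes stayed within 2-fold. With oxamate, 1 of the 10 genes, LMNB1, was at least 1.5-fold lower, against 3.82% of all genes, and 0 were at least 1.5-fold higher, against 4.3% of all genes. LMNB1 had a mean of 77.4 FPKM. Among genes with a mean of at least 50 FPKM, a limit chosen after the data had been seen, 10.7% were at least 1.5-fold lower. All 10 genes passed the filter on low values, but NES, KRT7 and KRT80 did so only through the libraries in which they were high.

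**Figure D1:**
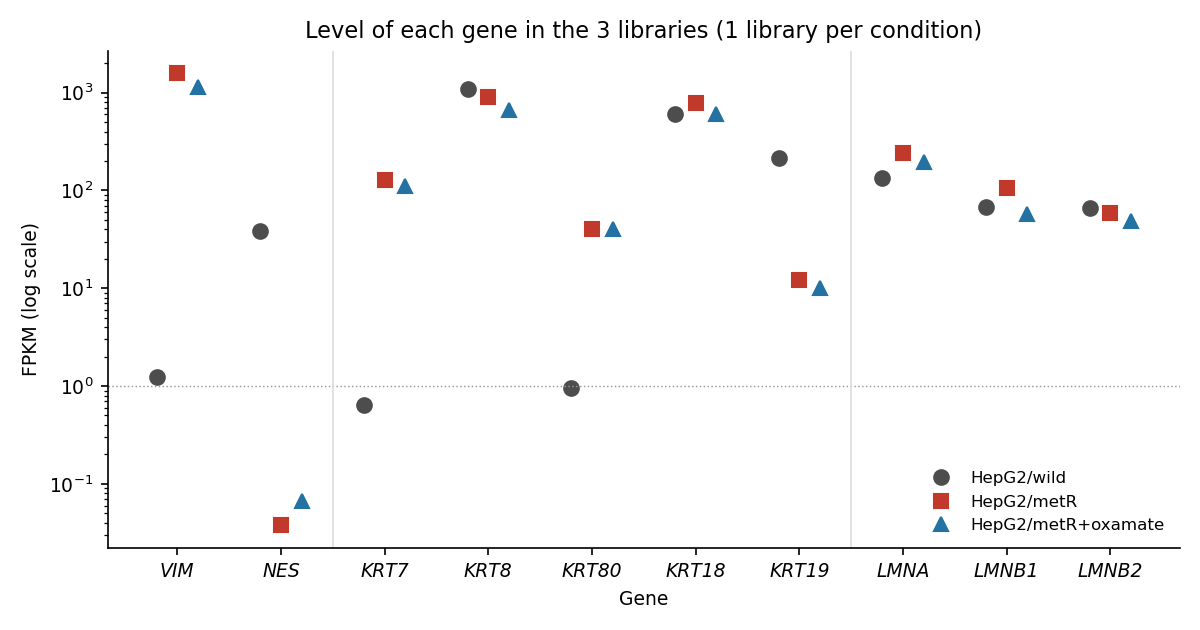
Level of each of the 10 genes in FPKM on a log axis, with 1 point per library and 1 library per condition. The dotted line marks 1 FPKM. VIM, KRT7 and KRT80 lie near 1 FPKM in HepG2/wild and at 40.2 FPKM or more in HepG2/metR, NES and KRT19 lie lower in both HepG2/metR libraries, and KRT8, KRT18 and the lamin genes lie close together in all 3.

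The sequences before the start sites of VIM and NES are shown because these were the genes with the largest positive and the largest negative difference among the 10. They were taken from RefSeq on build GRCh38.p14, whereas the submitters' processing notes name build hg19 for the data. Each run is the 250 bases before the annotated start, 5′ to 3′ on the strand of the gene, and capitals mark a GC box, searched as GGGCGG on both strands. VIM lies on the plus strand, with the window at chr10:17227991-17228240, and NES on the minus strand, at chr1:156677408-156677657.
VIM: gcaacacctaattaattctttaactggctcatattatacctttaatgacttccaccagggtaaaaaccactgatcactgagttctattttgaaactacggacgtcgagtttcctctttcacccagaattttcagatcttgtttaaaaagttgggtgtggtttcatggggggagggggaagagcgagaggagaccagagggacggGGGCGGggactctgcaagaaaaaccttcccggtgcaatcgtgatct
NES: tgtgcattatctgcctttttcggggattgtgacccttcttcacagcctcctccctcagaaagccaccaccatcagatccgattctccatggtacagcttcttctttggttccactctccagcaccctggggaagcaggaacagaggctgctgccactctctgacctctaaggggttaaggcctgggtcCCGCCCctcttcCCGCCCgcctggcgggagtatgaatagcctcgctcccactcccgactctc
The VIM window held 1 GC box and the NES window 2, and 42.6% of all 35116 RefSeq windows of this length held at least 1. Neither window held the TATA box, searched as TATAAA on both strands, which 10.7% of all windows held. Windows were present for 6 of the 10 genes.

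VIM had the largest difference of the 10 genes. It was listed at 1.23 FPKM in HepG2/wild, 1576 in HepG2/metR and 1140 in HepG2/metR+oxamate. The parental library was low and both HepG2/metR libraries were high. The log2 difference between HepG2/metR and HepG2/wild was 9.46, and the FPKM ratio was 1278. By level, VIM went from rank 11105 among the 25270 symbols to rank 49. VIM-AS1, an antisense gene at the same locus, was listed at 0.036, 1.97 and 1.91 FPKM. The strand setting of the counting is not given in the sources used here, so reads of VIM and VIM-AS1 where they overlap cannot be told apart. With oxamate VIM changed by -0.47 on the log2 scale, to 0.723 times the untreated FPKM, and remained 925 times as high as in HepG2/wild.

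NES showed the opposite order. It was listed at 38.6 FPKM in HepG2/wild, 0.038 in HepG2/metR and 0.068 in HepG2/metR+oxamate. The log2 difference between HepG2/metR and HepG2/wild was -5.25, and the FPKM ratio of HepG2/wild to HepG2/metR was 1022. In HepG2/metR NES stood at rank 14900, with 9131 of the 25270 symbols listed at 0, so this ratio rests on a value near the low end of the library. NES was therefore high in the library in which VIM was low, and near 0 in those in which VIM was high. The 5 other neural progenitor markers examined summed to 3.71 FPKM in HepG2/wild, 0.166 in HepG2/metR and 0.249 with oxamate. PROM1, which encodes a membrane protein of progenitor cells, and which was named after its values were seen, had 3.40 FPKM of the sum in HepG2/wild and was at 0 and 0.009 FPKM in the HepG2/metR libraries.

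KRT8 and KRT18, the hepatocyte pair, were the highest keratin genes in every library. KRT8 was listed at 1080 FPKM in HepG2/wild, 896.8 in HepG2/metR and 663.8 in HepG2/metR+oxamate, and KRT18 at 605.4, 786.6 and 605.7 FPKM. The log2 differences between HepG2/metR and HepG2/wild were -0.27 for KRT8 and 0.38 for KRT18, neither of which reached 2-fold. The FPKM ratio of KRT8 to KRT18 was 1.78 in HepG2/wild, 1.14 in HepG2/metR and 1.10 in HepG2/metR+oxamate. In RefSeq the genes are neighbours whose annotated spans overlap, and both have processed pseudogenes, so reads that the pair or its copies share could have been split. The copies looked up were low, with KRT18P55 listed at 0.667 FPKM or less and KRT8P41 at 0.021 FPKM or less. Other copies of the pair were not searched for. The pair thus stayed within 2-fold between libraries whose hepatocyte marker sums were 33140 and 14.2 FPKM.

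The ductal keratins KRT7 and KRT19 went opposite ways. KRT7, a type II keratin, was listed at 0.632 FPKM in HepG2/wild, 127 in HepG2/metR and 110.3 in HepG2/metR+oxamate, with a log2 difference of 6.29 between HepG2/metR and HepG2/wild. KRT19, a type I keratin that lacks most of the usual tail domain, was listed at 213.5, 12.3 and 10.0 FPKM, with a log2 difference of -4.02. The KRT19 value was 338 times that of KRT7 in HepG2/wild, and the KRT7 value was 10.4 times that of KRT19 in HepG2/metR and 11.0 times with oxamate. Other bile duct markers were set beside them. EPCAM, an epithelial adhesion protein, was listed at 102 FPKM in HepG2/wild and 0.090 in HepG2/metR, SPP1, which encodes osteopontin, at 1012 and 10.8 FPKM, and SOX9, a transcription factor of duct and progenitor cells, at 45.3 and 15.4 FPKM. CFTR, a chloride channel of the duct lining, was listed at 0 in all 3 libraries, and AQP1, a water channel, at 0.094, 0.138 and 0.253 FPKM.

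KRT80, a type II keratin that is linked to desmosomes and to the margin of differentiated epithelial cells, was listed at 0.959 FPKM in HepG2/wild, 40.2 in HepG2/metR and 40.4 in HepG2/metR+oxamate. The log2 difference between HepG2/metR and HepG2/wild was 4.39. With oxamate it was 0.01, the smallest difference of the 10 genes, and its sign turned to -0.02 under median-of-ratios scaling.

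The 54 keratin genes in the files included 49 that are not among the 10. Of these 49, 44 had a mean below 1 FPKM, and 33 were listed at 0 in HepG2/metR. The 5 with a mean of at least 1 FPKM were KRT10, KRT15, KRT23, KRT34 and KRT81, of which KRT10 was named after its values were seen. KRT23, a type I keratin, was listed at 35.9 FPKM in HepG2/wild and 0.023 in HepG2/metR, and had the largest negative log2 difference of the keratin genes at -5.17. KRT81, a hair keratin, was listed at 0.072 FPKM in HepG2/wild, 26.9 in HepG2/metR and 31.6 with oxamate. Its near copy KRT86 was at 0, 0.953 and 1.27 FPKM, and reads of the pair could have been split between them. KRT34, another hair keratin, was listed at 0 in HepG2/wild and at 16.7 and 13.7 FPKM in the HepG2/metR libraries. KRT15, named after its values were seen, was listed at 0.377, 7.57 and 4.79 FPKM. Of the 10 keratin genes with a mean of at least 1 FPKM, 5 were at least 2-fold higher and 2 at least 2-fold lower in HepG2/metR. Over all genes 16.6% were higher and 17.6% lower at this threshold. The median log2 difference of the 10 was 1.51. The 5 higher genes were under 1 FPKM in HepG2/wild and passed the filter only through the HepG2/metR libraries. KRT23 passed it only through HepG2/wild, so the counts and the median rest in part on the filter. Among other keratins of the basal and stress-induced epidermis, KRT5, KRT6A, KRT6B and KRT6C were listed at 0 in all 3 libraries, and KRT14, KRT16 and KRT17 at 0.122 FPKM or less.

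Although single keratin genes changed by large factors, the summed keratin level was 1946 FPKM in HepG2/wild, 1926 in HepG2/metR and 1489 in HepG2/metR+oxamate. KRT8 and KRT18 made up 86.6%, 87.4% and 85.2% of these sums. The ratio of summed type II to summed type I keratin FPKM was 1.25, 1.31 and 1.32, so the balance of the partners moved less than most of the genes that make it up. With type III, type IV and lens filament genes added, the cytoplasmic filament genes summed to 1989, 3510 and 2641 FPKM. VIM made up 0.062% of this sum in HepG2/wild, 44.9% in HepG2/metR and 43.2% in HepG2/metR+oxamate. The keratin sums of HepG2/wild and HepG2/metR were close, whereas the FPKM ratio of VIM to KRT18 was 0.002 in HepG2/wild, 2.003 in HepG2/metR and 1.88 in HepG2/metR+oxamate.

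**Figure D2:**
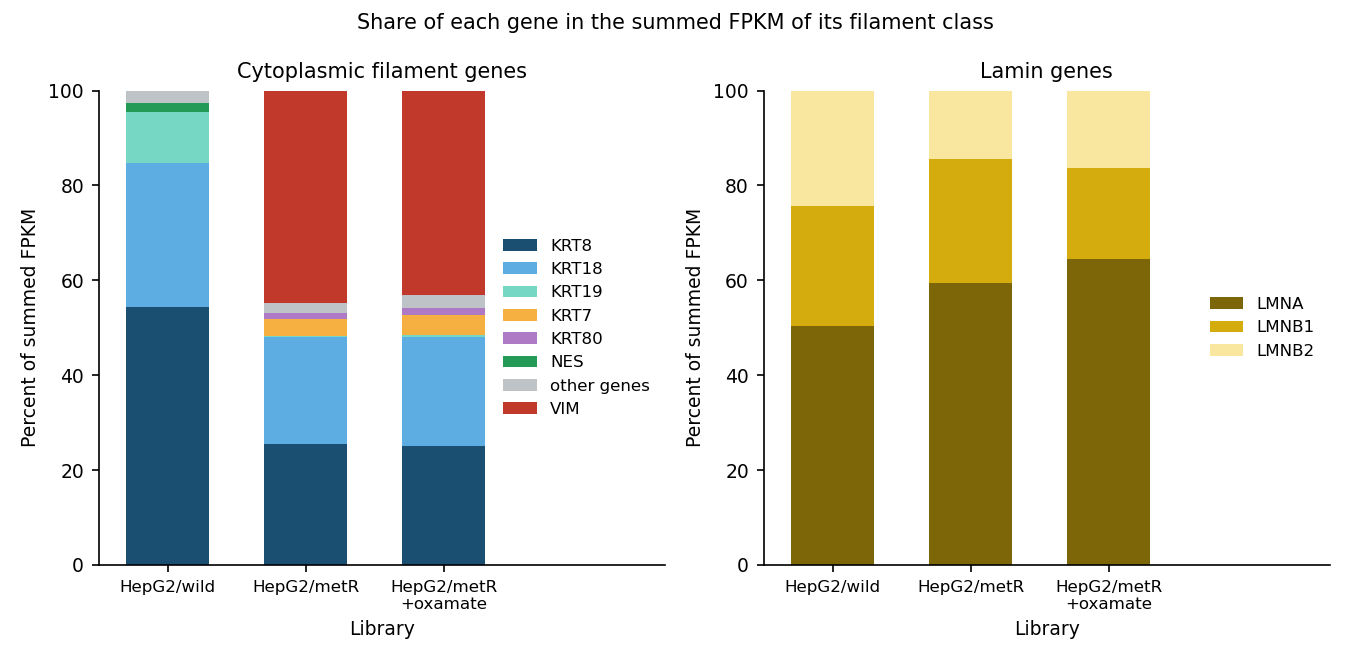
Stacked bars give the percent of the summed FPKM that each gene contributed in each library, for cytoplasmic filament genes on the left and lamin genes on the right. VIM holds 44.9% of the cytoplasmic filament sum in HepG2/metR and 0.062% in HepG2/wild, and LMNA holds 50.4%, 59.3% and 64.5% of the lamin sum in the order of the bars.

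The other type III and IV genes were low. INA, which encodes the neuronal protein internexin, was listed at 0.041 FPKM in HepG2/wild, 2.73 in HepG2/metR and 3.75 with oxamate. SYNM, which encodes synemin, a protein that joins filaments to adhesion sites, was at 3.40, 5.45 and 7.58 FPKM. DES, NEFL and NEFM, the genes of the muscle and neuronal filaments, were listed at 0 in all 3 libraries. INA, SYNM and these genes were named after their values were seen.

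The lamin genes were listed at 49.2 FPKM or more in all libraries. LMNA was listed at 135.6 FPKM in HepG2/wild, 239.7 in HepG2/metR and 194.3 in HepG2/metR+oxamate. LMNB1 was listed at 68.2, 106.2 and 57.7 FPKM, and LMNB2 at 65.4, 58.2 and 49.2 FPKM. The log2 differences between HepG2/metR and HepG2/wild were 0.82 for LMNA, 0.63 for LMNB1 and -0.17 for LMNB2, of which 0 reached 2-fold. The ratio of LMNA to the sum of both B-type genes was 1.01 in HepG2/wild, 1.46 in HepG2/metR and 1.82 in HepG2/metR+oxamate. In HepG2/wild LMNB1 and LMNB2 were close to each other, in HepG2/metR LMNB1 was 1.82 times as high as LMNB2, and with oxamate it was 1.17 times as high.

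Of 18 genes whose products bind lamins or sit in the inner nuclear membrane, 18 had a mean of at least 1 FPKM. In HepG2/metR, EMD and ANKLE2 passed 2-fold upward, SUN2 passed 2-fold downward, and the median log2 difference was 0.34. Over all genes 16.6% were higher and 17.6% lower at 2-fold, so both counts among the 18 lay below those shares. EMD, which encodes emerin, was listed at 21.5 FPKM in HepG2/wild, 75.1 in HepG2/metR and 63.8 with oxamate. SUN2, which couples the lamina to the cytoskeleton, was at 29.2, 11.0 and 10.1 FPKM, while its paralog SUN1, named after its values were seen, was at 24.4, 44.7 and 46.0 FPKM. Of the 5 genes that process the lamin tail, FNTB, a subunit of the enzyme that attaches the farnesyl lipid, was at least 2-fold lower, at 2.98 against 8.37 FPKM, and was named after its value was seen. ZMPSTE24, the protease that matures lamin A, was listed at 52.1, 43.4 and 43.6 FPKM.

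Desmosomes are the junctions that anchor keratin filaments. Of 9 desmosome genes with a mean of at least 1 FPKM, 5 were lower in HepG2/metR by at least 2-fold and 1 was higher, and the median log2 difference was -1.42, or -0.30 over all 14 desmosome genes with no filter on low values. DSP, which encodes desmoplakin, the protein that ties keratin to the desmosome, was listed at 53.8 FPKM in HepG2/wild, 5.70 in HepG2/metR and 7.91 with oxamate, and PERP, a desmosome membrane protein, at 42.2, 13.5 and 14.1 FPKM. The 1 higher gene was DSC3, a desmosomal cadherin named after its values were seen, at 0.103, 7.86 and 10.9 FPKM. DSC3 passed the filter only through the HepG2/metR libraries. Among 9 linker and hemidesmosome genes 4 were higher and 2 lower. For both lists the shares over all genes were 16.6% higher and 17.6% lower. PLEC, which encodes plectin, a linker of keratin, vimentin and actin, was listed at 11.0, 30.0 and 39.2 FPKM, and ITGA6, the integrin chain of hemidesmosomes, at 45.0, 129.2 and 90.8 FPKM. PPL and EPPK1, which encode the keratin linkers periplakin and epiplakin, were the lower genes, at 4.81 and 4.196 FPKM in HepG2/wild and at 0.017 and 0 in HepG2/metR, and were named after their values were seen. PPL and EPPK1 passed the filter only through HepG2/wild.

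Epithelial and mesenchymal markers were set beside the filament genes. Of 6 epithelial markers with a mean of at least 1 FPKM, 5 passed 2-fold downward in HepG2/metR and 1 upward, against 17.6% and 16.6% of all genes. At a mean of at least 5 FPKM, 2 were lower and 1 higher. The higher gene, CLDN7, named after its values were seen, was listed at 0.171, 8.26 and 7.91 FPKM. The summed level of all 13 markers was 199.8 FPKM in HepG2/wild, 9.50 in HepG2/metR and 9.19 with oxamate. CLDN4, a tight junction protein, was listed at 72.9 and 0.021 FPKM in the first pair of libraries. Of 14 mesenchymal markers other than VIM, 7 were at least 2-fold higher and 4 at least 2-fold lower. THY1, a surface protein of fibroblasts, was listed at 0.037 FPKM in HepG2/wild and 53.3 in HepG2/metR, and SPARC, a secreted matrix protein, at 27.4 and 552 FPKM. FN1, which encodes fibronectin, went the other way, at 1503 against 45.7 FPKM, as did S100A4, a calcium-binding protein of motile cells, at 38.9 against 1.29 FPKM, and TAGLN, an actin-binding protein of smooth muscle, at 52.2 against 9.27 FPKM. The summed level of all 18 mesenchymal markers was 1689, 736.6 and 635.1 FPKM, of which FN1 made up most in HepG2/wild. Of the 18 markers, 4 were under 1 FPKM in both HepG2/metR libraries, namely COL1A1, COL1A2, COL3A1 and DCN, whereas the matrix genes LUM and COL5A1 were at 3.25 and 1.93 FPKM in HepG2/metR and at 6.69 and 4.46 FPKM with oxamate. These 6 genes, and the 4 that follow, were named after their values were seen. The transcription factor genes SNAI2, ZEB2 and TWIST1 were at 0.043, 0.033 and 0 FPKM in HepG2/wild. In HepG2/metR they were at 6.48, 5.27 and 3.29 FPKM, at least 2-fold higher. ACTA2, at 22.5 against 7.36 FPKM, was at least 2-fold lower.

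**Figure D3:**
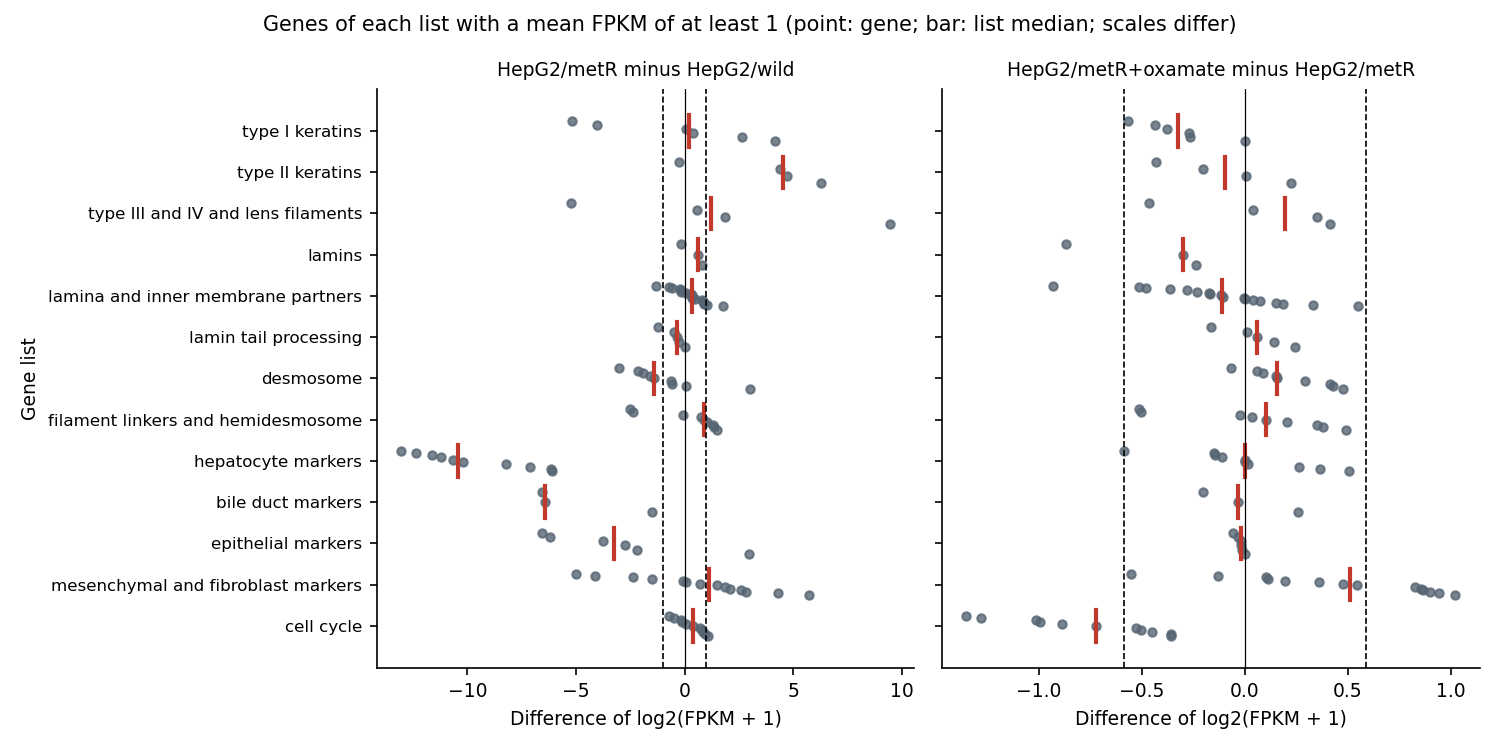
Each point is a gene with a mean of at least 1 FPKM, placed by its difference of log2(FPKM + 1) between HepG2/metR and HepG2/wild on the left and between HepG2/metR+oxamate and HepG2/metR on the right, with red bars at list medians and dashed lines at the fold thresholds. Hepatocyte markers lie at a median of -10.44 on the left, and cell cycle genes at a median of -0.72 on the right, which has a finer scale.

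With oxamate, the LMNB1 value of 57.7 FPKM was below both other libraries, and the log2 difference from HepG2/metR was -0.87, or an FPKM ratio of 0.543. LMNB1 was the 1 gene of the 10 past 1.5-fold, and it stayed past it at -0.70 when each library was scaled to the same total. The other lamin genes changed by -0.30 for LMNA and -0.24 for LMNB2. NRM, which encodes the inner nuclear membrane protein nurim, was the 1 gene of 18 lamina partners past 1.5-fold, listed at 14.3, 12.4 and 6.02 FPKM. LMNB1 mRNA is known to be higher in dividing cells, and cell cycle genes had the same sign with oxamate. Of 11 cell cycle genes, 11 had a negative log2 difference with oxamate and 6 were at least 1.5-fold lower, with a median of -0.72. Over all genes 45.6% were negative and 3.82% at least 1.5-fold lower, and at a mean of at least 50 FPKM 81.9% and 10.7%. Between HepG2/metR and HepG2/wild, where LMNB1 was higher but within 2-fold, 7 of the 11 genes had a positive difference and 4 a negative one. At 2-fold 1 of the 11, MKI67, was higher and 0 were lower, against 16.6% and 17.6% of all genes. MKI67 was listed at 18.2, 39.3 and 28.5 FPKM. The study reported slightly slower growth of HepG2/metR than of parental cells. RRM2, a subunit of ribonucleotide reductase, was listed at 112.7, 149.6 and 58.0 FPKM, AURKB, a mitotic kinase, at 44.8, 77.8 and 31.5 FPKM, and MCM2, a subunit of the replicative helicase, at 61.8, 54.7 and 26.6 FPKM. The part of the cell cycle genes in the LMNB1 difference was not tested.

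The 7 cytoplasmic filament genes stayed within 1.5-fold with oxamate. The log2 differences were -0.43 for KRT8, -0.38 for KRT18, -0.27 for KRT19 and -0.20 for KRT7, and NES, near 0 in both libraries, changed by 0.04. In all, 8 of the 10 genes had a negative value, with a median of -0.29. High expression moved with this sign over all genes. Among the 1638 genes with a mean of at least 50 FPKM, a limit chosen after the data had been seen, 81.9% had a negative value, the median was -0.24 and 10.7% were at least 1.5-fold lower, while among the 5658 genes from 1 to 10 FPKM the median was 0.13. The 8 negative genes of the 10 all had a mean of at least 50 FPKM, KRT19 only through HepG2/wild, since it was at 12.3 and 10.0 FPKM in the libraries compared, and genes with a mean from 10 to 50 FPKM had a median of -0.0077. When each library was scaled to the same total, the median of all genes with oxamate moved up by 0.15, and relative to that median VIM was at -0.46, KRT8 at -0.43, KRT18 at -0.37 and LMNB1 at -0.86. Of the 5 genes at least 2-fold apart between HepG2/metR and HepG2/wild, 0 changed by 1.5-fold with oxamate on the log2(FPKM + 1) scale. Over all genes 4.3% were at least 1.5-fold higher with oxamate and 3.82% lower, so 0 of 5 is close to those shares. NES, near 0 in both libraries, had little room to differ on this scale.

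**Figure D4:**
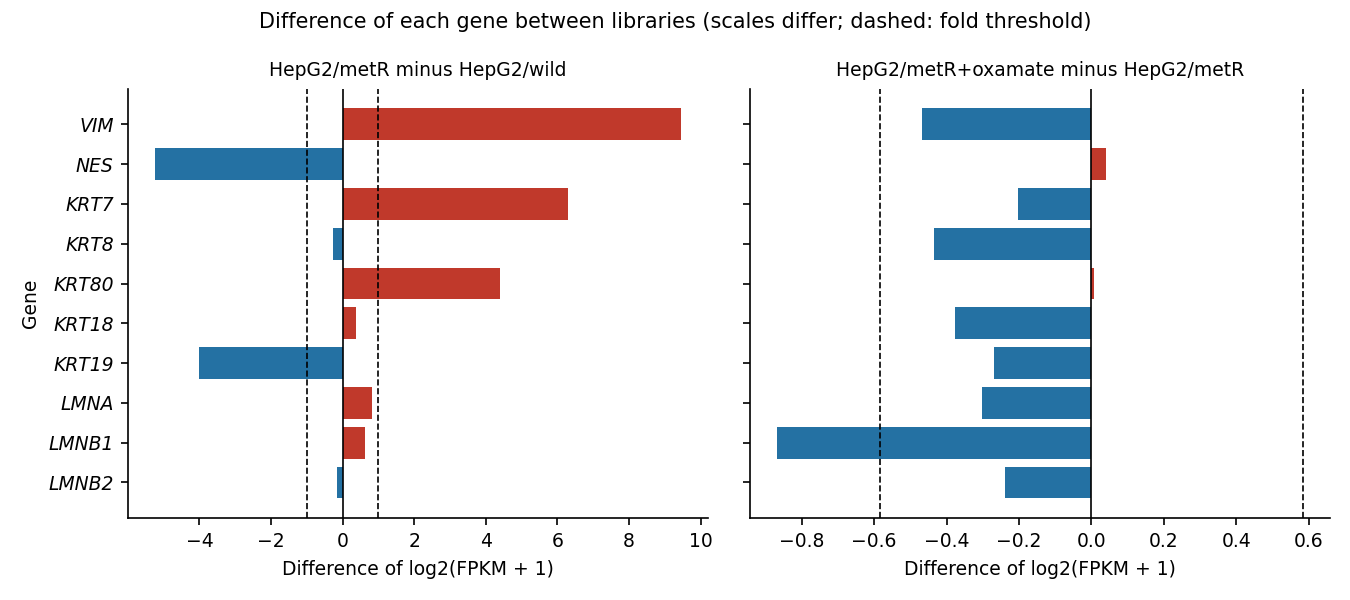
Bars give the difference of log2(FPKM + 1) of each gene between HepG2/metR and HepG2/wild on the left and between HepG2/metR+oxamate and HepG2/metR on the right, on different scales, with dashed lines at 2-fold and 1.5-fold. VIM reaches 9.46 and NES -5.25 on the left, and LMNB1, at -0.87, is the single gene past the line on the right.

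Most mesenchymal markers had the opposite sign to VIM under oxamate. Of the 14 with a mean of at least 1 FPKM, 6 were at least 1.5-fold higher, against 4.3% of all genes. None was at least 1.5-fold lower, and the median log2 difference was 0.51, against -0.47 for VIM. Several of these markers had a mean below 10 FPKM, whereas that of VIM was 906. Over all genes the median was 0.13 from 1 to 10 FPKM and -0.29 at 200 FPKM or more. The part of expression level in this contrast was not tested. FN1 was listed at 45.7 FPKM in HepG2/metR and 93.7 with oxamate, and S100A4 at 1.29 and 3.41 FPKM, while SPARC, at 552 and 376 FPKM, had the sign of VIM. Of 9 desmosome genes 0 passed 1.5-fold with oxamate, 8 had a positive difference, and DSP changed by 0.41. When each library was scaled to the same total, 2 were at least 1.5-fold higher, against 9.75% of all genes. With a pseudocount of 0.1 or none, 1 was, against 8.34% and 9.36% of all genes.

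Genes with the most similar pattern were found among 6475 genes with a mean of at least 10 FPKM, as those at the smallest distance over both log2 differences, that is over 3 libraries. The 3 nearest to VIM were LDHB, a lactate dehydrogenase subunit, at a distance of 0.10, SRGN, a proteoglycan core protein, at 0.84, and CAV1, the caveolae protein caveolin-1, at 1.26. LDHB was listed at 0.298, 983 and 712 FPKM. With a pseudocount of 0.1 the 3 nearest to VIM were SAA1, G0S2 and CAV1, without LDHB. The nearest to KRT8 were CCT7, a subunit of the cytosolic chaperonin, DGUOK, a mitochondrial nucleoside kinase, and TIMM44, a mitochondrial import protein, all at 0.01. The nearest to LMNA were DDX39A, ARHGAP11A and SNX24, at 0.02 to 0.03, and the nearest to LMNB1 were HAUS8, EME1 and DTL, at 0.07 to 0.08. With so few libraries, many genes lie near a pattern of small differences such as that of KRT8, and few lie near that of VIM.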

How the data were processed

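Total RNA of 3 cultures, 1 per condition, was sequenced by the authors on an Illumina NextSeq instrument. The deposited log2 values are 1 per gene symbol and library and have the form of log2(FPKM + 1), since undoing that transform gave numbers of at most 6 significant digits for 100% of values above 1 FPKM. The submitters' processing notes name STAR 2.5.1b, Cufflinks 2.2.1, FastQC 0.11.5 and build hg19, and the annotation, filters and strand setting are not given in the sources used here. Rows named as dates by spreadsheet software, 28 in all, were not used by name.

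Differences of the deposited values were computed without further scaling over the 12210 genes with a mean of at least 1 FPKM. No test was possible with 1 library per condition. The 10 genes and the gene lists were chosen with earlier results of these data known. Besides the 10 genes, the naming rule took up to 3 genes per direction of each list at a mean of at least 10 FPKM. These had the largest differences past the threshold. The rule also took the 3 genes nearest to VIM, KRT8, LMNA and LMNB1. Of the genes it took, APOA2, AFP, SERPINA1 and CD151 were left out of the text above. Names outside this rule are given as named after their values were seen, or as genes of a class listed at or near 0, as partner genes (KRT86, ZMPSTE24, VIM-AS1 and pseudogenes) or as the marker HNF4A. Relative depth is the modal ratio, between libraries, of FPKM below 0.15. Scripts were tested on simulated data. Of the bile duct markers chosen, 1 is not reported here and entered no list value. Alternatives were other pseudocounts, filters, scalings and thresholds. Python 3.11.15, numpy 2.4.6, pandas 2.3.3 and matplotlib 3.10.9 were used.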

Additional observations from a re-analysis of the deposited data

How the results depend on the processing

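The medians of the 10 genes kept their sign under every alternative run, and under other pseudocounts, filters and scalings the 6 differences past a threshold stayed past it. With a pseudocount of 0.1 the log2 differences between HepG2/metR and HepG2/wild were 10.21 for VIM, 7.44 for KRT7, 5.25 for KRT80 and -8.13 for NES, and with none they were 10.32, 7.65, 5.39 and -10.00. With none, NES changed by 0.84 with oxamate, from one value near 0 to another, and made 1 gene at least 1.5-fold higher. A 1.5-fold threshold in both comparisons put 5 genes higher in HepG2/metR, LMNA and LMNB1 being added, against 26.7% of all genes, and a 2-fold threshold left 0 genes lower with oxamate, against 0.524% of all genes. The median of the 10 genes with oxamate ranged from -0.31 under median-of-ratios scaling to -0.12 after scaling to equal totals. Upper-quartile scaling moved the median of all genes between HepG2/metR and HepG2/wild by 0.14. The median of the mesenchymal markers in that comparison was 1.11, and -0.075 at a mean of at least 5 FPKM, where fewer genes enter. The 3 genes nearest to KRT8 were the same with a pseudocount of 0.1, and 1 of 3 was shared for VIM, LMNA and LMNB1. No paired analysis was possible because each condition has 1 library. Without replicates or read counts, the error of a single value is unknown.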
